A study of Neurospora crassa with 16 samples.

Results

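The run of genes from NCU09306 inward to NCU09272 occupies 1 chromosome end of the filamentous fungus Neurospora crassa. Its members are every gene of the count table with a number from NCU09272 to NCU09306, which gave 32 of 9730 genes over a range of 35 numbers. In the NC12 annotation of RefSeq all 32 matched, NCU09306 was the outermost gene of its chromosome end, and another 13 annotated genes with other numbers lay between the members. The range itself was selected on measured folds in these same comparisons, so every count of members below is a description and tests nothing.

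Silencing by methylation of lysine 27 of histone H3 is the work of Polycomb repressive complex 2. In N. crassa its methyltransferase subunit is encoded by set-7, and genes under the mark are usually silent and lie largely near chromosome ends. EPR-1, encoded by epr-1, is a protein with a BAH domain, which recognises the methylated lysine, and a PHD finger. Loss of set-7 removes the mark, whereas EPR-1 acts downstream of it as a reader. The study asked what loss of EPR-1 does to silenced genes beside loss of SET-7.

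The groups were delta epr-1, delta set-7 and wild type. The delta epr-1 group held 2 poly(A) RNA libraries from strains in which hph replaces epr-1, N7491 of mating type a as replicate 1 and N7479 of mating type A as replicate 2. They were grown with shaking for 16 h at 32 °C in minimal medium with sucrose. The table header names strain N3752 for both wild-type columns, and strains N4730 and N4718 for the delta set-7 columns. The wild-type and delta set-7 libraries come from an earlier series, so for delta epr-1 the genotype and the series cannot be told apart, and single values of those libraries were not used here. All comparisons between groups were read from the authors' deposited tables, and a gene is called here at a DESeq2 adjusted p below 0.05. Nothing says that replicates of a strain were separate cultures, so p-values measure the spread between these samples only.

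The delta epr-1 libraries held 10434667 and 10562443 reads in genes. The deleted gene NCU07505 (epr-1) still held 60 and 53 reads there, and fell by 2.33 on the log2 scale (SE 0.24) by the authors' deposited table for delta epr-1. The set-7 gene fell by 1.65 (SE 0.64, DESeq2 adjusted p = 0.0460), just inside the call, by the authors' deposited table for delta set-7. GEO calls the material germinated conidia. Of the 9 listed conidiation genes none was at 0, and their summed level was 27677 and 21060 normalized counts in the 2 libraries, most of it from con-8 and eas. The libraries differed in both genes, with eas at 13576 and 3973 and con-8 at 9890 and 12744 normalized counts. The 5 matched genes of growing hyphae summed to 116353 and 118479 normalized counts, and the 10 of sexual development to 8093 and 13248. Most of the hyphal sum was tef-1, at 98164 and 101259, so that sum says little of the other genes listed. In the sexual sum asd-1 stood at 4124 and 9274. By the authors' deposited tables, 3 conidiation genes were called higher and 2 lower in delta epr-1, and 1 higher and 3 lower in delta set-7. For sexual development, 1 gene was higher and 3 lower in delta epr-1, and 0 higher and 4 lower in delta set-7, by the authors' deposited tables. For hyphae, delta epr-1 had 2 genes higher and 2 lower, and delta set-7 had 0 higher and 0 lower, by the authors' deposited tables. The part of these markers in the results was not tested. In such bulk samples, fewer cells of a type and less RNA per cell cannot be told apart.

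Of the 3 outermost and the 3 innermost members, 5 were called higher in delta epr-1 and all 6 in delta set-7, by the authors' deposited tables. The bounds of the run were selected on these same folds, so rises at its edges may follow from that choice alone. In delta epr-1, 12 of 30 tested members were called higher and 2 lower by the authors' deposited table, where 23.3% of all tested genes were called higher and 24.5% lower, 47.8% in all. In delta set-7, 9 of 29 tested members were called higher and 1 lower by the authors' deposited table, where the shares of all tested genes were 10.3% higher and 11.6% lower, 21.8% in all. Median log2 folds of the tested members were 0.44 in delta epr-1 beside 0.18 in delta set-7, against 0.00 over all tested genes in each, by the authors' deposited tables. Both comparisons share the wild-type libraries. Fewer members passed a stricter rule with a change of at least 2-fold. In delta epr-1 it left 3 higher and 2 lower members (7.13% and 11.2% over all tested genes, 18.3% in all), and in delta set-7 it left 7 higher and 1 lower (2.52% and 3.83%, 6.35% in all), by the authors' deposited tables. Without replicate 1 of delta epr-1, 7 members were called higher there, where 17.1% of all tested genes were, and the 3 innermost were not among them.

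**Figure D1:**
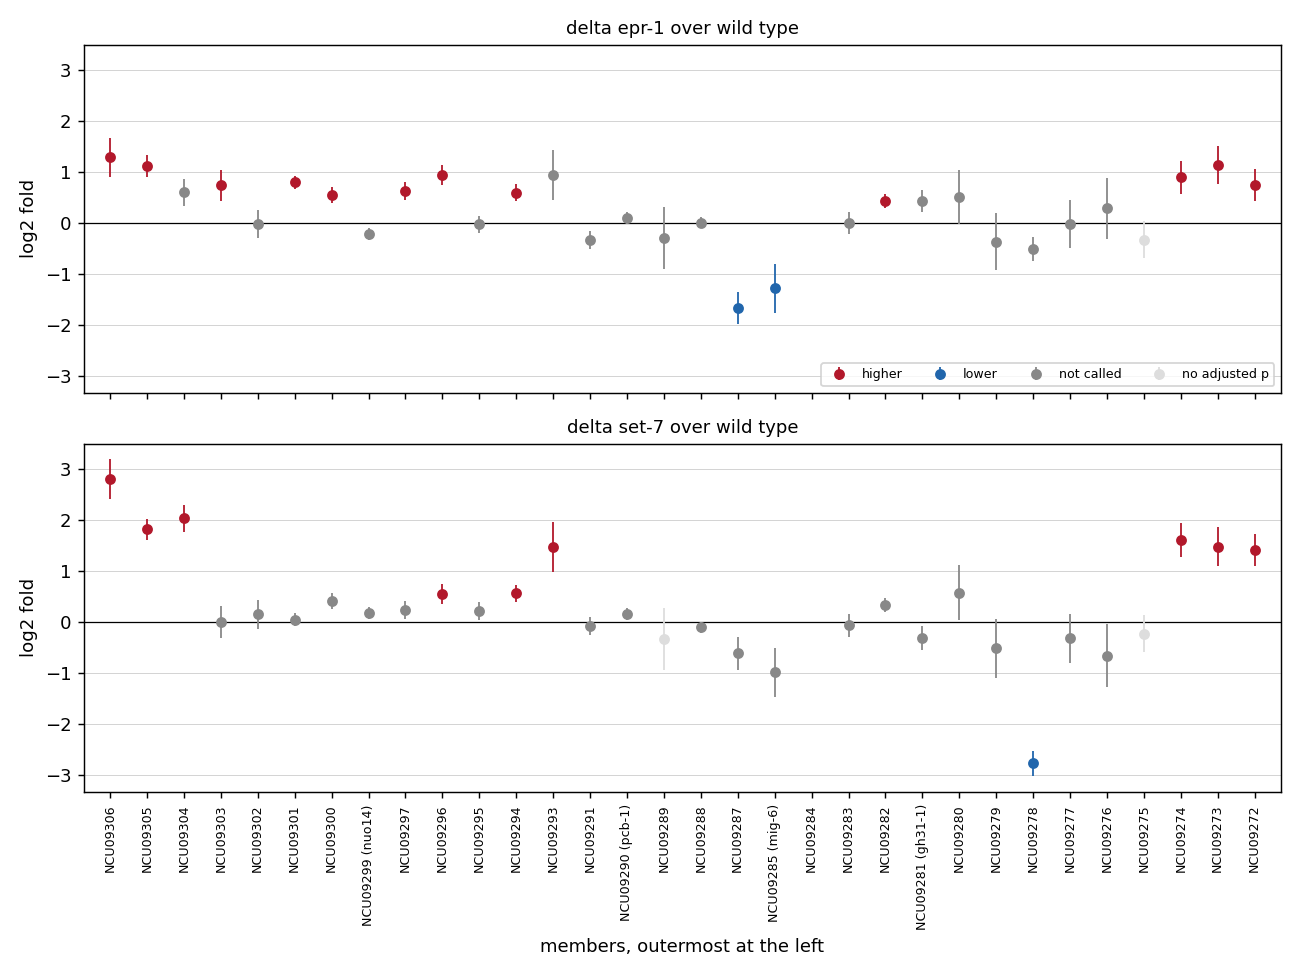
Log2 fold of each member over wild type in delta epr-1 (upper panel) and delta set-7 (lower panel), from the authors' deposited tables, with the outermost gene at the left; bars are 1 standard error and colours give calls at an adjusted p below 0.05. The 3 outermost members lie at 0.60 to 1.29 in delta epr-1 beside 1.82 to 2.81 in delta set-7, the 3 innermost lie above 0 in both panels, and NCU09278 is the 1 member called lower in delta set-7. NCU09284, with no fold, has no point.

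The outermost member, NCU09306, showed the largest rise of the run in delta set-7. It held 94.8 and 110.4 normalized counts in the 2 delta epr-1 libraries, from 116 and 130 reads. By log2 fold it stood at 1.29 (SE 0.39, DESeq2 adjusted p = 0.00263) in delta epr-1 beside 2.81 (SE 0.38, adjusted p = 1.52e-11) in delta set-7, by the authors' deposited tables. On a linear scale these are rises of 2.45-fold and 7.01-fold, by the authors' deposited tables. NCU09305, the next member inward, held 204 and 201 normalized counts in delta epr-1. Its log2 fold was 1.12 (SE 0.21, DESeq2 adjusted p = 9.47e-07) in delta epr-1 beside 1.82 (SE 0.21, adjusted p = 1.81e-15) in delta set-7, by the authors' deposited tables. NCU09304 held 120.2 and 90.9 normalized counts in delta epr-1. On the log2 scale it stood at 0.60 in delta epr-1 (SE 0.27, DESeq2 adjusted p = 0.0544), just outside the call, by the authors' deposited table. In delta set-7 it rose by 2.04 (SE 0.27, DESeq2 adjusted p = 1.60e-12), by the authors' deposited table. That gene was called in delta epr-1 without replicate 2 (0.79, DESeq2-based adjusted p = 0.0412) but not without replicate 1. All 3 thus had a positive fold in each mutant.

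The other 7 members of the outer block, NCU09303 to NCU09296, included 5 that rose in delta epr-1 and 1 that rose in delta set-7. NCU09301 held 1525 and 1396 normalized counts in delta epr-1 libraries, and its log2 fold was 0.80 (SE 0.12, DESeq2 adjusted p = 8.22e-10) in delta epr-1 beside 0.05 (adjusted p = 0.850) in delta set-7, by the authors' deposited tables. NCU09296 held 388 and 416 normalized counts and rose in both mutants, with 0.94 (SE 0.19) in delta epr-1 beside 0.55 (SE 0.19) in delta set-7, by the authors' deposited tables. NCU09303, NCU09302, NCU09300 and NCU09297 held 109 to 662 normalized counts in the delta epr-1 libraries. NCU09303, NCU09300 and NCU09297 were called higher in delta epr-1, at 0.74, 0.56 and 0.63, and were not called in delta set-7, at 0.01, 0.41 and 0.23, by the authors' deposited tables. NCU09300 lay just outside the call in delta set-7, with a DESeq2 adjusted p of 0.0516 by the authors' deposited table. The NCU09303 call was lost with either library left out, at 0.76 and 0.72. Its fold moved little and that step doubles the delta epr-1 variance, so the loss does not show that 1 library decides the call. NCU09302 was not called in either mutant, at -0.01 and 0.15, by the authors' deposited tables. The gene nuo14 (NCU09299) encodes a subunit of complex I of the respiratory chain. It held 1113 and 1171 normalized counts in delta epr-1 and was not called in either mutant, with -0.21 in delta epr-1 beside 0.18 in delta set-7, by the authors' deposited tables. Over the block of 10 from NCU09306 to NCU09296, delta epr-1 had 7 called higher and 0 lower, by the authors' deposited table. Calls there took in 23.3% of all tested genes as higher and 24.5% as lower, by the authors' deposited table. In delta set-7 the block had 4 higher and 0 lower, against 10.3% and 11.6% of all tested genes, by the authors' deposited table.

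The 2 members called lower in delta epr-1 both lie in the middle block, NCU09295 to NCU09284. That is 2 lower and 1 higher of 9 tested, where all tested genes had 24.5% lower and 23.3% higher, by the authors' deposited table. The block's 22.2% lower was near the share over all tested genes. In delta set-7 it had 2 higher and 0 lower of 8 tested, against 10.3% and 11.6% of all tested genes, by the authors' deposited table. NCU09287 held 134 and 115 normalized counts in delta epr-1 and had a log2 fold of -1.67 (SE 0.32, DESeq2 adjusted p = 1.42e-06) there, and -0.62 (adjusted p = 0.169) in delta set-7, by the authors' deposited tables. The gene mig-6 (NCU09285) held 20005 and 21671 normalized counts in delta epr-1, a high level in both libraries. Its log2 fold was -1.28 (SE 0.48, DESeq2 adjusted p = 0.0188) in delta epr-1 beside -0.99 (SE 0.48, adjusted p = 0.133) in delta set-7, by the authors' deposited tables. The mig-6 call was lost without replicate 1 (-1.22) and without replicate 2 (-1.34). Its fold moved little and that step doubles the delta epr-1 variance, so the losses do not show that 1 library decides the call. In NC12 this gene holds the nested gene NCU12058 and overlaps NCU11411. The deposited count of ambiguous reads stood at -0.87 (SE 0.10) in delta epr-1 beside -0.19 (SE 0.10) in delta set-7 on the log2 scale, by the authors' deposited tables. The part of such reads in the mig-6 result was not tested. Nor was it tested for NCU11411, NCU09294, NCU09283, NCU09282 and gh31-1, which also overlap other genes in NC12.

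Rises in the middle block were those of NCU09294 and NCU09293. NCU09294 held 363 and 370.2 normalized counts in delta epr-1. Its log2 fold was 0.60 (SE 0.17, DESeq2 adjusted p = 0.00109) in delta epr-1 beside 0.56 (SE 0.17, adjusted p = 0.00832) in delta set-7, by the authors' deposited tables, so its folds were near each other. In NC12 it overlaps NCU14160, which was not analysed here. NCU09293 held 40.9 and 56.9 normalized counts in delta epr-1. It stood at 0.94 (SE 0.49, DESeq2 adjusted p = 0.103) in delta epr-1 and rose in delta set-7, at 1.47 (SE 0.49, adjusted p = 0.0166), by the authors' deposited tables. NCU09295, NCU09291, pcb-1 (NCU09290) and NCU09288 held 399 to 2053 normalized counts in the 2 delta epr-1 libraries and were called in neither mutant. Their log2 folds ran from -0.33 to 0.10 in delta epr-1 beside from -0.11 to 0.22 in delta set-7, by the authors' deposited tables. NCU09289 held 8 reads in replicate 1 and 0 in replicate 2. It was not called in delta epr-1 and has no adjusted p in delta set-7, by the authors' deposited tables. NCU09284, nested in NCU09283 in NC12, held 0 reads in both delta epr-1 libraries and a mean of 0 over all libraries by the authors' deposited table. A count of 0 has an upper Poisson limit of 3.69 reads (95% interval), for counting error only. The floor used here was set at 3 reads, which is 2.45 normalized counts in replicate 1 and 2.55 in replicate 2.

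At the inner edge, NCU09274, NCU09273 and NCU09272 rose in both mutants. NCU09274 held 142.2 and 86.6 normalized counts in delta epr-1 libraries, and its log2 fold was 0.90 (SE 0.33, DESeq2 adjusted p = 0.0156) in delta epr-1 beside 1.62 (SE 0.33, adjusted p = 1.65e-05) in delta set-7, by the authors' deposited tables. NCU09273 held 88.3 and 55.2 normalized counts, and its log2 fold was 1.15 (SE 0.38, DESeq2 adjusted p = 0.00613) in delta epr-1 beside 1.48 (SE 0.38, adjusted p = 0.00102) in delta set-7, by the authors' deposited tables. NCU09272, the innermost, held 136.5 and 99.4 normalized counts, and its log2 fold was 0.74 (SE 0.31, DESeq2 adjusted p = 0.0377) in delta epr-1 beside 1.41 (SE 0.31, adjusted p = 9.47e-05) in delta set-7, by the authors' deposited tables. Replicate 1 was the higher library for all 3. Without it their delta epr-1 folds were 0.50, 0.77 and 0.50, and none of the 3 was called (DESeq2-based adjusted p = 0.342, 0.177 and 0.318). Without replicate 2 all 3 were called.

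NCU09278 fell in delta set-7. It held 785 normalized counts in replicate 1 and 1297 in replicate 2 of delta epr-1. In delta epr-1 its log2 fold was -0.50 (SE 0.23, DESeq2 adjusted p = 0.0643), by the authors' deposited table. With replicate 2 left out, that fold was -0.91 and was called (DESeq2-based adjusted p = 0.00520), and without replicate 1 it was -0.19 (adjusted p = 0.660), so 1 library decides it. In delta set-7 its log2 fold was -2.77 (SE 0.25, DESeq2 adjusted p = 3.36e-27), a level 0.147 times that of wild type, by the authors' deposited table.

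Of the other members of the inner block, NCU09282 was the only one called against wild type. NCU09282 held 720.2 and 664 normalized counts and rose in delta epr-1, at 0.44 (SE 0.14, DESeq2 adjusted p = 0.00397), against 0.34 (adjusted p = 0.0705) in delta set-7, by the authors' deposited tables. Without replicate 1 it was not called in delta epr-1 (0.38). The gene gh31-1 (NCU09281), named for glycoside hydrolase family 31, which includes fungal alpha-glucosidases, overlaps NCU09282 in NC12. It held 249 and 256 normalized counts in delta epr-1 and was called in neither mutant, with 0.43 in delta epr-1 beside -0.30 in delta set-7, by the authors' deposited tables. NCU09283 held 208 and 257 normalized counts and stood near 0 in both mutants, at 0.00 and -0.06, by the authors' deposited tables. NCU09280, NCU09279, NCU09277 and NCU09276 held 8.49 to 56.0 normalized counts in the delta epr-1 libraries and were not called, with standard errors of 0.47 to 0.62 by the authors' deposited tables. NCU09275 held 0 reads in both delta epr-1 libraries and has no adjusted p in any of the authors' deposited tables. Over the inner block, NCU09283 to NCU09272, 11 members were tested in each mutant. Delta epr-1 had 4 higher and 0 lower, against 23.3% and 24.5% of all tested genes, by the authors' deposited table. Delta set-7 had 3 higher and 1 lower, against 10.3% and 11.6%, by the authors' deposited table.

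**Figure D2:**
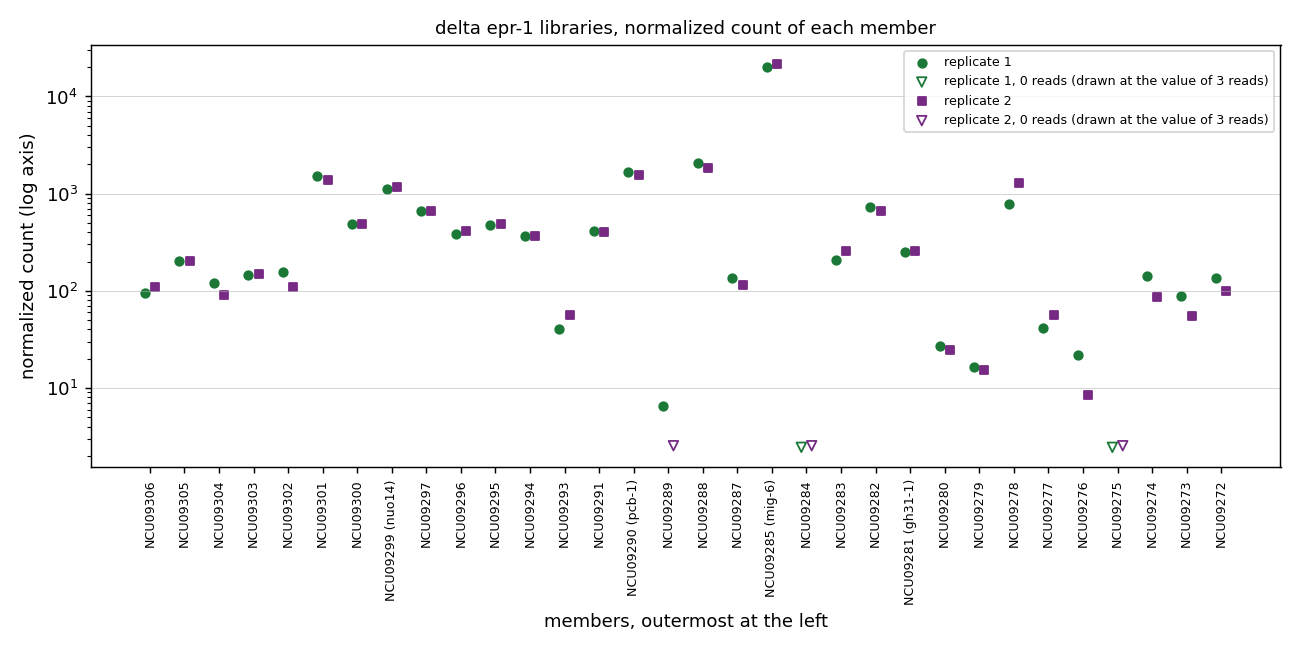
Normalized count of each member in delta epr-1 replicate 1 (circles) and replicate 2 (squares) on a log axis, not divided by gene length, with the outermost gene at the left; open triangles are libraries with 0 reads, drawn at the value of 3 reads. The libraries lie close together for most members and furthest apart for NCU09289, NCU09276, NCU09278, NCU09274, NCU09273 and NCU09302.

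In the delta epr-1 libraries 29 of 32 members held at least 10 reads each time, which is 90.6% against 82.5% of all genes. The median normalized count was 181 in replicate 1 and 175 in replicate 2, against 240 and 246 over all genes. Over the 29 members averaging 10 or more normalized counts, the median absolute log2 ratio of the libraries was 0.13, against 0.15 over 8030 genes. NCU09276 had the largest such ratio, with 22.1 normalized counts in replicate 1 and 8.49 in replicate 2. Symbols were given to 4 members (12.5%), against 11.5% of all genes.

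Set against each other directly, delta epr-1 lay below delta set-7 at the outer edge and above it at NCU09278. In the authors' deposited table of this contrast 5 of 30 tested members were higher in delta epr-1 and 5 lower, where 22.1% of all tested genes were higher and 23.8% lower, 45.9% in all. With a change of at least 2-fold there were 1 higher and 3 lower, against 8.37% and 10.9% of all tested genes (19.2% in all), by the authors' deposited table. The median log2 fold was -0.01 over tested members and 0.01 over all tested genes, by the authors' deposited table. NCU09306 stood at -1.52 (SE 0.37, DESeq2 adjusted p = 0.000203), NCU09304 at -1.43 (SE 0.26, adjusted p = 2.72e-07) and NCU09305 at -0.70 (SE 0.20, adjusted p = 0.00206) by the authors' deposited table. NCU09278 stood at 2.27 (SE 0.25, DESeq2 adjusted p = 7.16e-19) by the authors' deposited table, or 1.86 without replicate 2 and 2.58 without replicate 1. NCU09301 was higher in delta epr-1, at 0.75 (SE 0.13), and so was gh31-1, at 0.74 (SE 0.23), by the authors' deposited table. NCU09303 (0.73) and NCU09297 (0.40) were higher too by the authors' deposited table, but neither was called with a delta epr-1 library left out. Their folds moved little then, to 0.71 to 0.75 and 0.39 to 0.41, so these losses do not show that 1 library decides the calls. NCU09287 was lower, at -1.05 (SE 0.33), and so was nuo14, at -0.39 (SE 0.12), by the authors' deposited table. Without replicate 1 nuo14 was not called.

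For the 3 innermost genes the mutants were not told apart. NCU09274, NCU09273 and NCU09272 stood at -0.72 (SE 0.32), -0.33 (SE 0.37) and -0.67 (SE 0.31) in delta epr-1 over delta set-7, with DESeq2 adjusted p of 0.0570, 0.503 and 0.0639 by the authors' deposited table. Without replicate 1, NCU09274 (-1.12) and NCU09272 (-0.91) were called lower in delta epr-1. The series of the libraries differs in this contrast as well, and ambiguous reads stood at -0.68 (SE 0.10) by the authors' deposited table.

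**Figure D3:**
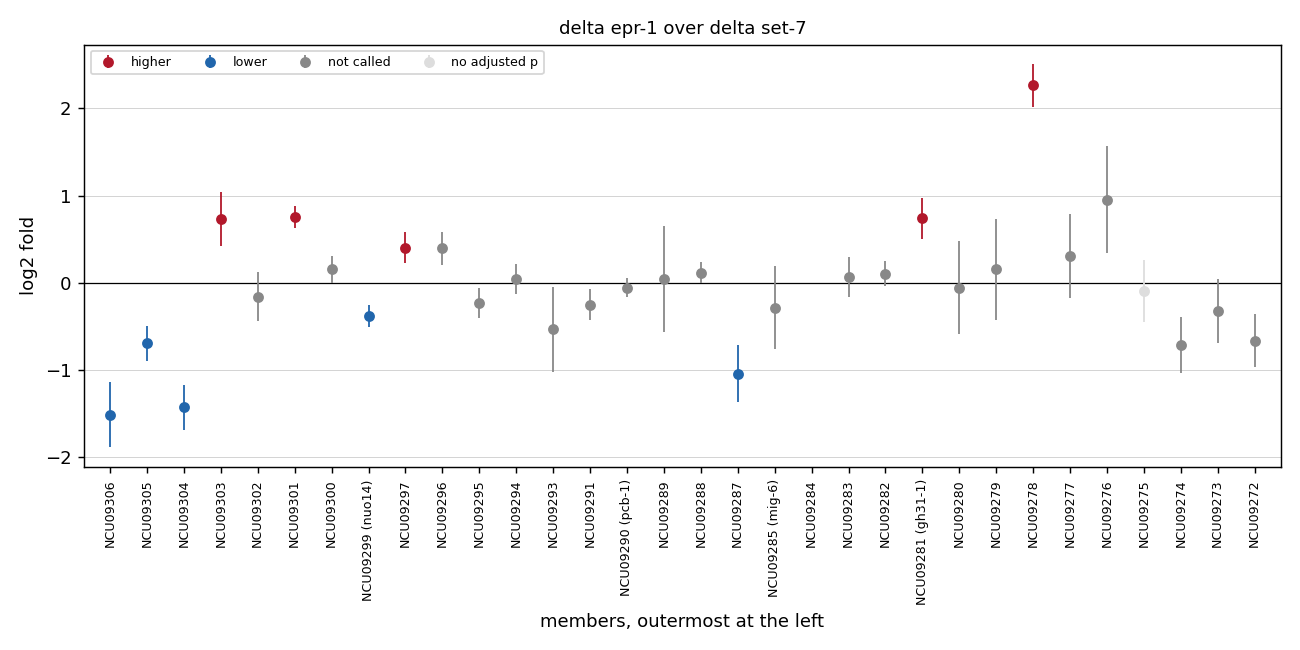
Log2 fold of each member in delta epr-1 over delta set-7, from the authors' deposited table, with the outermost gene at the left; bars are 1 standard error and colours give calls at an adjusted p below 0.05. The 3 outermost members lie at -1.52, -0.70 and -1.43, and NCU09278 lies at 2.27.

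Annotated neighbours with other numbers lie among the members, and 9 of the 13 were in the count table. Of the 8 tested, delta epr-1 had 5 called higher and 0 lower, and delta set-7 had 3 higher and 0 lower, by the authors' deposited tables. Shares over all tested genes were 23.3% and 24.5% in delta epr-1, and 10.3% and 11.6% in delta set-7, by the authors' deposited tables. The gene cao-2 (NCU11424) encodes a carotenoid oxygenase that acts in the synthesis of neurosporaxanthin and lies between NCU09306 and NCU09305. It held 2088 and 2973 normalized counts in delta epr-1 and stood at -0.16 (SE 0.19) in delta epr-1 beside 0.69 (SE 0.19, DESeq2 adjusted p = 0.00267) in delta set-7, by the authors' deposited tables. NCU11411, between NCU09287 and mig-6, rose in both, at 0.93 (SE 0.23) and 1.26 (SE 0.24), by the authors' deposited tables. NCU17154 and NCU17155, which lie between NCU09293 and NCU09291, rose in delta epr-1, at 0.99 and 0.83, and were not called in delta set-7, at -0.12 and -0.21, by the authors' deposited tables.

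Just outside the inner bound, NCU09271 stood at 0.59 (SE 0.35) in delta epr-1 beside 0.67 (SE 0.36) in delta set-7, and NCU09270 at 0.10 and -0.27, with neither called by the authors' deposited tables. The next, NCU09430, rose in both mutants, at 2.17 in delta epr-1 beside 1.67 in delta set-7, by the authors' deposited tables. Of the next 32 genes inward in NC12, 25 were tested in delta epr-1, with 9 higher and 1 lower, and 23 in delta set-7, with 3 higher and 1 lower, by the authors' deposited tables. Their median log2 folds were 0.27 in both mutants, by the authors' deposited tables. All tested genes had 23.3% called higher and 24.5% lower in delta epr-1, beside 10.3% and 11.6% in delta set-7, by the authors' deposited tables. The deposited folds of the members had a Spearman rho with their order from the end of -0.25 over 30 members in delta epr-1 beside -0.32 over 29 in delta set-7. Members share their libraries, so these values are descriptions.

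The other 13 ends of the 7 chromosomes were counted in the same way, with the outermost 32 genes in the table at each. At the end from NCU09306 these are 24 members and 8 of the interspersed genes, and 14 of 30 tested were called higher in delta epr-1 beside 9 of 29 in delta set-7, by the authors' deposited tables. The other ends had 6 to 15 called higher in delta epr-1, with a median of 8, and 2 to 12 in delta set-7, with a median of 6, by the authors' deposited tables. The end from NCU17054, which had the most genes called higher in delta set-7, had 7 of 30 called higher in delta epr-1 beside 12 of 29 in delta set-7, by the authors' deposited tables. Of all tested genes, 23.3% were called higher in delta epr-1 beside 10.3% in delta set-7, by the authors' deposited tables. In the direct contrast the end from NCU09306 had 6 genes higher and 6 lower in delta epr-1, and the end from NCU17054 had 4 higher and 12 lower, by the authors' deposited table. All tested genes had 22.1% higher and 23.8% lower in that contrast, by the authors' deposited table. The difference between ends was not tested.

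**Figure D4:**
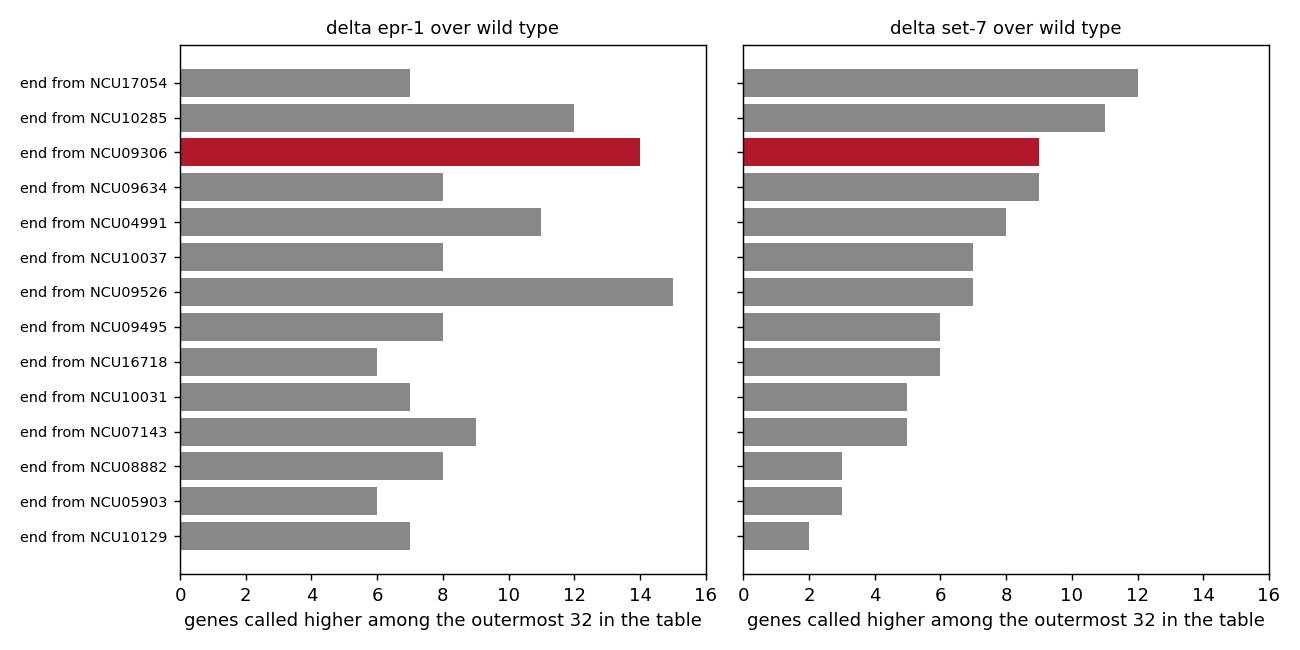
Number of genes called higher than in wild type among the outermost 32 genes of each chromosome end, in delta epr-1 (left) and delta set-7 (right), from the authors' deposited tables; each bar is 1 end named by its outermost gene, with the end from NCU09306 in red. That end has 14 genes called higher in delta epr-1 beside 9 in delta set-7, within the range of the other 13 ends. Over all tested genes the share called higher is 23.3% (left) and 10.3% (right).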

How the data were processed

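The 2 delta epr-1 RNA-seq libraries and 3 comparisons deposited by the authors were analysed. ChIP-seq and DamID samples, 14 of 16, were not used here, nor were 4 table columns for wild type and delta set-7, whose samples belong to another series. Bowtie2, DESeq2 and deepTools are listed, per the submitters' processing notes; versions, genome build and the use of strand in counting (the kit keeps strand) are not given in the sources used here. Genes were named and ordered with NC12, to which 9729 of 9730 matched.

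The per-sample signal was deposited by the authors as DESeq2 normalized counts. Low values were whole multiples of 1 read in 100% of cases (tolerance 0.01), which gave size factors of 1.22 and 1.18. No count test was run, since the columns of the other groups were not used. The 4 summary entries held 19.1% and 17.5% of reads and were left out. The deposited log2 folds, per the file headers, have wild type, or delta set-7, on top; their sign was turned here, giving mutant over wild type and delta epr-1 over delta set-7. The deposited score columns are their standard errors and Wald statistics, per the file headers. The p-values and adjusted p-values are the authors' DESeq2 values as deposited. No source used here states whether folds were shrunk, but their standard errors behave as after shrinkage. In delta set-7, NCU09275, at a mean of 1.16 over all libraries, had a standard error of 0.361. NCU09276, at a mean of 10.6, had 0.616, the largest of a member. Linear folds given here carry any such shrinkage.

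Members and lists were chosen with earlier results of these data known. Values are given for members called with a log2 fold of at least 1 in any contrast and for members with a symbol, and the rest by counts and ranges. Members with smaller called changes and NCU11411, NCU17154, NCU17155 and cao-2 were named after their values were seen. The 3 outermost and 3 innermost members were not planned as a group. Of numbers NCU09237 to NCU09271, planned as the next genes inward, 2 of 34 lie on this chromosome in NC12, so annotated neighbours were used in their place. Values without a delta epr-1 library add log2 of the kept library over the average of both (pseudocount 0.5) to the deposited fold, double the delta epr-1 variance found from the 3 standard errors, and adjust again (Benjamini-Hochberg) over all tested genes; the kept library is assumed to vary like the other. The ratio added in this step is not shrunk, whatever was done to the deposited folds. In this step the doubled variance alone can lose a call near the threshold, even where the fold hardly moves. This step was tested on simulated data. Python 3.11.15, pandas 2.3.3 and SciPy 1.17.1 were used.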

Additional observations from a re-analysis of the deposited data

How the results depend on the processing

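No paired analysis was possible because only delta epr-1 libraries were used one by one. Since the wild-type and delta set-7 columns were not used, none of those libraries was left out, and calls in delta set-7 have no such check here. With only the numbers from NCU09289 outward, 8 members were called in delta epr-1 (0 lower, median log2 fold 0.60). Calls there took in 23.3% of all tested genes as higher and 24.5% as lower. In delta set-7 this range left 6 (0 lower), against 10.3% and 11.6% of all tested genes. For the direct contrast it left 7 (3 higher, 4 lower, median -0.11), against 22.1% and 23.8%. With a log2 fold of at least 1, 5 were called in delta epr-1 (3 higher) and 4 in the direct contrast (1 higher, 3 lower). With an adjusted p below 0.01, delta epr-1 had 9 higher and 1 lower (17.8% and 20.3% of all tested genes), and the direct contrast 3 higher and 5 lower (17.0% and 19.7%). With a mean of at least 50 the direct median was -0.11. Leaving out a delta epr-1 library gave 9 to 14 calls against wild type (7 to 12 higher), where 36.9% to 42.1% of all tested genes were called (17.1% to 19.4% higher). In the direct contrast it gave 8 to 10 calls (3 higher each time, 5 to 7 lower), where 36.6% to 40.4% of all tested genes were called. It gave medians of 0.39 to 0.57 against wild type and -0.11 to 0.016 in the direct contrast, and a median level of 175 to 181 normalized counts. As CPM the median level was 20.0. Against wild type, 6 members lost and 1 gained a call without replicate 1, and 2 lost and 2 gained one without replicate 2. In the direct contrast 3 lost and 3 gained a call without replicate 1, and 2 lost one without replicate 2. NCU09289 is among the lower calls and the gained calls of both contrasts without replicate 1 (-3.20 and -2.87). It has 0 reads in the kept library, so that fold rests on the pseudocount. Its sign turned in the direct contrast (0.04 by the authors' deposited table). NCU09297 in the direct contrast also lost its call when folds were recentred (0.39) or adjusted over every gene (0.40). No fold called with both libraries changed sign under the alternatives run for it. The 4 members NCU09280, NCU09279, NCU09277 and NCU09276 had standard errors of 0.47 to 0.62 in the authors' deposited tables, so small changes were not detectable there.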
